A study of Drosophila melanogaster with 96 samples.

Results

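Fasted virgin females were compared with fasted virgin males of the fruit fly Drosophila melanogaster, strain w1118, a white-eyed laboratory stock. The comparison used 6 of the 96 libraries of the series, taken by their labels: 3 females and 3 males marked 0 h and 0% dimethyl sulfoxide (DMSO), the solvent that the series fed to other flies. Each library held polyadenylated RNA from the whole body of 1 fly. Both groups were 3 days old, had been kept as virgins on a chemically defined food, and were moved singly under CO2 into the wells of a feeding plate. There they received the defined food for 24 h and then only phosphate-buffered saline for 6 h, and none was refed before it was chilled and collected. Total RNA was extracted together with RNA of another Drosophila species and a mosquito embryo, and the part of this mixing in the values was not tested. Females filled the upper rows of the plate and males the lower rows, so sex and plate position cannot be told apart. Each fly was a replicate of its own, and a p-value is therefore set against the variation between single flies. In whole bodies, fewer cells of a type and less RNA per cell cannot be told apart.

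In this species, an X chromosome dose of female level turns on Sex-lethal, an RNA-binding protein that directs the splicing of transformer, and transformer with its partner transformer 2 directs the splicing of doublesex and fruitless. Males lack this cascade and instead assemble a complex of MSL proteins and roX RNAs that raises transcription from their single X chromosome. Most sex differences in a whole adult come from the reproductive tract. The ovary loads eggs with maternal RNA and yolk and wraps them in an eggshell, while the testis uses a transcription programme of its own and the accessory gland and ejaculatory duct and bulb secrete seminal proteins. Counts per library measure the amount of RNA from a gene, and splicing of these regulators was not analysed here.

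The 6 libraries held 2797283 to 5553063 counts assigned to genes, and all 6 carried the same sequencing run number. Between 11001 and 11402 genes had at least 1 count in each female, against 13795 to 13856 in each male. Genes for ribosomal RNA took 6.74 to 16.9% of the gene counts in females and 16.6 to 51.2% in males. Levels below are in CPM, read counts relative to the library total, after scaling by the trimmed mean of M values, whose factors ran from 0.625 in male replicate 2 to 1.32 in female replicates 2 and 3. On the first principal component, which held 93.6% of the variance, the sexes lay apart, and the second component, with 3.61%, set female replicate 1 apart from the other 2 females. That female had 198 genes at least 4-fold above both other females and 96 genes at least 4-fold below both, against 1 and 6 genes in female replicate 2 and 9 and 20 in female replicate 3. Its name recurs below because it was also the fly with high antimicrobial peptide RNA.

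Of 11339 genes tested, 1889 were higher in females and 3654 were higher in males by edgeR's quasi-likelihood test at an adjusted p under 0.05, which is 16.7% and 32.2% of the genes tested. In 22.6% of the genes every female lay above every male, and in 38.7% every male lay above every female. The male-higher genes differed by far larger folds than the female-higher genes. The median fold was 2.65 among the female-higher genes and, with genes absent from all females put at the bound their counts allow, 19.6 among the male-higher genes. Of the male-higher genes, 1405 had 0 counts in every female, while 16 of the female-higher genes had 0 counts in every male. Such genes passed the count filter only through the sex with counts, so their direction was fixed in advance. Leaving ribosomal RNA genes out of the total, the female-higher genes took 38 to 42.2% of the counts in females and 10.9 to 14.5% in males. On the same base the male-higher genes took 43.9 to 55.1% in males and 9.92 to 13.5% in females. The median log2 fold change (female over male) of all genes tested was -0.19, and directions of small changes turn on the scaling: 34.1% of the called genes were female-higher with the scaling used here, 55.3% with upper-quartile scaling (3492 female-higher and 2818 male-higher) and 59.7% with total counts (3698 and 2497), which moved that median by 0.45 and 0.68. The female-higher count was 1091 without male replicate 3 and 1242 without male replicate 1.

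**Figure D1:**
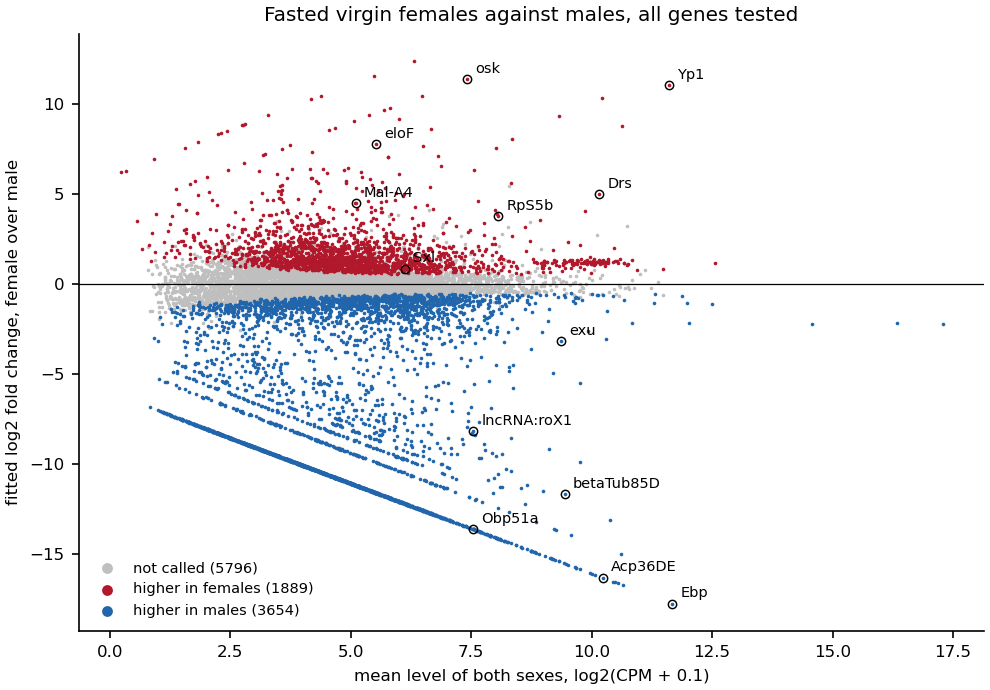
Each point is 1 of the 11339 genes tested, with the mean level of both sexes on the x axis as log2(CPM + 0.1) and the fitted log2 fold change on the y axis, red where higher in females and blue where higher in males at an adjusted p under 0.05. The straight blue line along the lower edge is formed by genes with 0 counts in all 3 females, whose fitted fold is not a measured size, and circled genes are described in the text.

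The regulators at the top of the cascade differed modestly, and the roX RNAs of the male dosage complex differed most. Sxl, which encodes Sex-lethal, stood at 94.9, 87.5 and 86.5 CPM in the 3 females and at 49.2, 50 and 49.6 CPM in the 3 males. The groups did not overlap and the log2 fold change was 0.85 (SE 0.19, edgeR adjusted p = 0.00674). For dsx, the last transcription factor of the cascade, females held 16, 9.06 and 23.6 CPM and males 36.8, 44.8 and 46.9 CPM, with every male above every female (log2 fold change -1.39, SE 0.36, edgeR adjusted p = 0.0123). Without male replicate 3 this call was lost. The tra transcript, by contrast, overlapped between the sexes, at 11.7, 9.97 and 10.6 CPM in females and 6.19, 12.7 and 6.28 CPM in males, and did not pass the test (adjusted p = 0.459). Of the 10 genes listed for sex determination, 2 were female-higher (Sxl and nito, an RNA-binding partner of Sex-lethal, at a log2 fold change of 1.83) and 3 were male-higher (dsx, fru and tra2), and the list's median was 0.43. Over all genes tested, 16.7% were female-higher and 32.2% male-higher. The 3 male-higher calls were lost with upper-quartile scaling, with total-count scaling and without male replicate 3, and 1 was left without female replicate 2. Female-higher genes of the list numbered 5 with upper-quartile scaling and 7 with total-count scaling, at medians of 0.87 and 1.16. Without female replicate 1, 4 genes were female-higher.

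The roX RNAs, noncoding scaffolds of the male complex, were near absent in females. Females held 1.54, 0.725 and 1.58 CPM of lncRNA:roX1, and males held 403, 405 and 305 CPM. The log2 fold change was -8.17 (SE 0.37, edgeR adjusted p = 1.89e-05). No count of lncRNA:roX2 was found in any female, against 19.9, 17.0 and 15.5 CPM in the males, which was at least 27.0-fold higher in males for a floor of 3 counts per library. The protein that makes the complex specific to males, msl-2, stood at 7.43 to 10.8 CPM in females and 20.7 to 25.7 CPM in males (log2 fold change -1.32, adjusted p = 0.00499, lost with total-count scaling). Its partner msl-1 went the other way, at 32.7, 87.2 and 57.8 CPM in females and 7.80, 15.6 and 9.59 CPM in males (log2 fold change 2.43, adjusted p = 0.00178). These 4 genes were the calls among 8 listed for dosage compensation, a share near the 48.9% of all genes tested that were called in either direction. The list's median was -0.08.

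**Figure D2:**
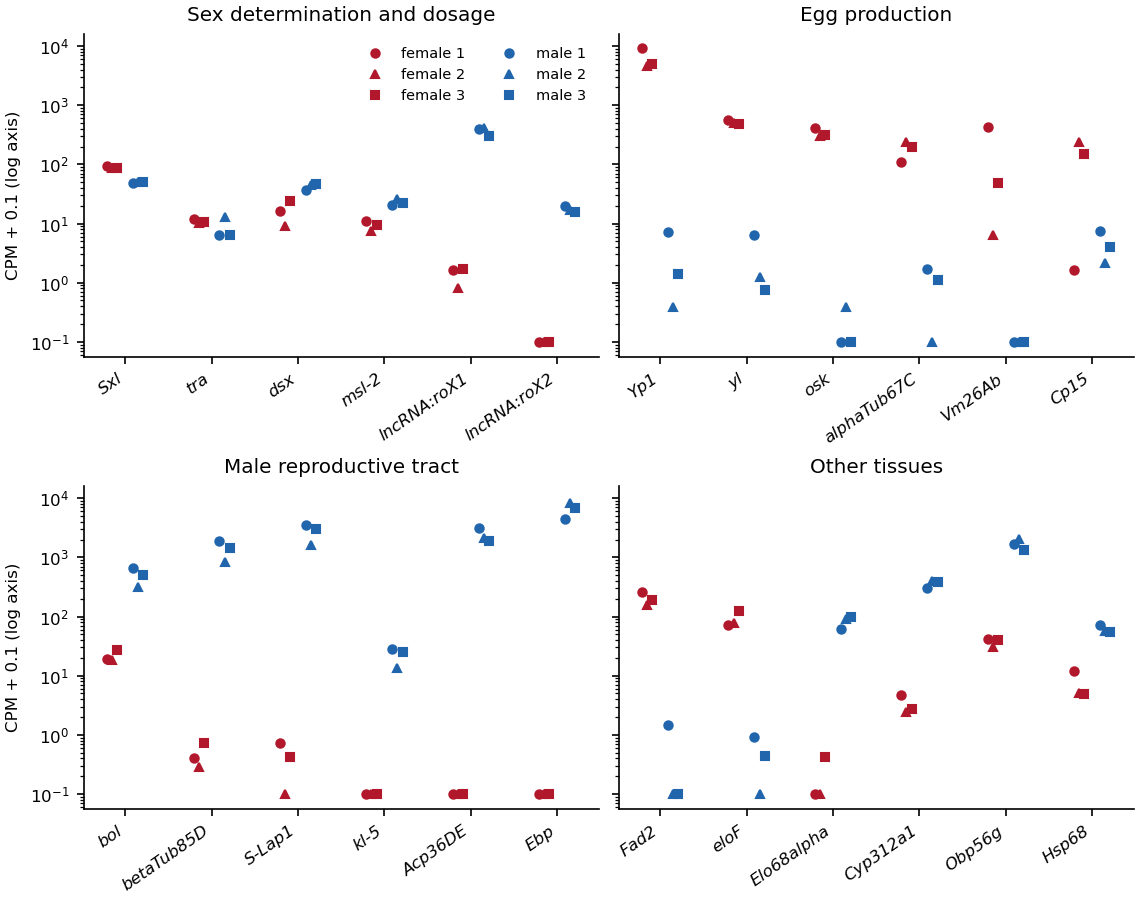
Levels of 24 genes in each of the 6 fasted flies, as CPM + 0.1 on a log axis, with red for females, blue for males and 1 marker shape per replicate number. Replicate numbers do not pair flies across sexes. Points on the lowest line have 0 counts, as for lncRNA:roX2, kl-5, Acp36DE and Ebp in all 3 females.

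Genes of egg production were higher in females, and the females differed among themselves in the late, eggshell-forming genes. All 4 genes of yolk supply were called: the yolk protein genes Yp1, Yp2 and Yp3, expressed in fat body and follicle cells, and yl, the receptor through which the oocyte takes up yolk. Females had 9124, 4516 and 5019 CPM of Yp1, while the males had 6.99, 0.289 and 1.32 CPM. That is a log2 fold change of 11.03 (SE 0.97, edgeR adjusted p = 4.62e-05), with no overlap. For yl the females lay at 478 to 552 CPM and the males at 0.661 to 6.19 CPM (log2 fold change 7.52). The other yolk protein genes had log2 fold changes of 10.31 (Yp2) and 8.75 (Yp3).

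Among maternal genes, 20 of 27 tested were higher in females and 3 in males, with a list median of 3.18. The RNA of osk, which assembles the germ plasm at the posterior of the egg, stood at 405, 306 and 312 CPM in females, and a count was found in only 1 male, at 0.289 CPM. Its log2 fold change was 11.38 (SE 0.53, adjusted p = 1.89e-05). The maternal tubulin alphaTub67C was at 110 to 237 CPM in females and 0 to 1.61 CPM in males. For vas, a germ-line helicase of both sexes, the females were at 56.1 to 69.6 CPM and the males at 4.30 to 6.07 CPM (log2 fold change 3.62). Members of this list also serve the male germ line, and the 3 male-higher ones were exu, bgcn and orb. The males held 1544, 701 and 1314 CPM of exu and the females 93.4, 163 and 135 CPM, a log2 fold change of -3.18 (SE 0.36, adjusted p = 0.000151). The translational repressor bgcn was at 22.5 to 51.6 CPM in males and 0.308 to 1.10 CPM in females.

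Some eggshell genes were high in all 3 females and others in 1 or 2 of them. Of 12 vitelline membrane genes, which build the inner eggshell layer, 6 had counts enough to be tested and all 6 were higher in females. Of the 12 listed, 4 had 0 counts in every male. Such genes, Vm26Ab among them, pass the count filter only through the females, which fixes their direction in advance. The eggshell gene clos was at 126, 76.3 and 77.2 CPM in females and 1.16 to 7.6 CPM in males (log2 fold change 4.20), so each female lay well above the males. Vm26Ab was at 421 CPM in female replicate 1, 6.34 in female replicate 2 and 47.7 in female replicate 3, with 0 counts in every male. Only 1 of 11 genes of the chorion, the outer layer, was tested. That gene, Cp15, was at 1.54, 243 and 147 CPM in females and 2.02 to 7.26 CPM in males, so female replicate 1 lay among the males. It was called (log2 fold change 4.87, SE 1.35, adjusted p = 0.0175), but not without male replicate 2 or male replicate 3, nor with a replicate block. Summed over the list, chorion genes reached 13.2 CPM in female replicate 1, 248 in female replicate 2 and 7007 in female replicate 3, and the major chorion genes Cp36 and Cp38 reached 2600 and 2688 CPM in female replicate 3 with under 2 CPM in the other females. The females thus stood in different order for the inner and outer layers.

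Germ-line maintenance, DNA replication and ribosome production were also female-higher. Of 24 genes of the piRNA pathway, which silences transposons in the germ line, 17 were higher in females and 1 in males. The Argonaute gene piwi stood at 61.6, 70.7 and 70.2 CPM in females and 1.88, 0.866 and 2.31 CPM in males (log2 fold change 5.31, SE 0.35, adjusted p = 2.26e-05), and rhi, a chromatin protein of piRNA source loci, at 8.94 to 29.7 CPM against 0.331 to 0.807 CPM. The male-higher gene was Hen1, a small RNA methyltransferase, at 11.8 to 18.3 CPM in males and 5.55 to 5.98 CPM in females, a call that was lost with total-count scaling. Of 22 replication and cell cycle genes tested, 18 were higher in females and none in males. For Mcm5, a subunit of the replicative helicase, the females held 33.0, 120 and 95.8 CPM and the males 0.661 to 1.88 CPM. Female replicate 1 was the lowest female for this gene, for Mcm7 (35.7 against 135 and 82.2 CPM) and for the mitotic cyclin CycB (273 against 1162 and 681 CPM), and without it 21 of the genes tested were female-higher.

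Of 20 ribosome biogenesis genes tested, 19 were higher in females and none in males, with a list median of 2.03. Nop60B, the enzyme that makes pseudouridine in ribosomal RNA, was at 192, 296 and 209 CPM in females and 16.9, 19.4 and 27.8 CPM in males (log2 fold change 3.44, SE 0.30, adjusted p = 4.49e-05). Of 85 cytosolic ribosomal protein genes, 78 were female-higher and 6 male-higher, and these counts were the same with upper-quartile and total-count scaling. The common members differed by about the same amount, RpL3 by 1.13 and RpL5 by 1.07 on the log2 scale. Paralogs went further in each direction. RpS5b was at 459, 584 and 445 CPM in females and 32.0 to 40.3 CPM in males (log2 fold change 3.77, adjusted p = 2.05e-05). RpL10Aa had 0 counts in every female and 140, 47.1 and 90.6 CPM in males, at least 143-fold higher, and RpL22-like had 0 counts in every female and 31.2 to 44.6 CPM in males, at least 55.9-fold higher. RpS19b stood at 0.544 to 1.26 CPM in females and 36.4 to 54.9 CPM in males. Among 70 genes of mitochondrial ribosomal proteins tested, 14 were female-higher and none male-higher at a median of 0.48. That female-higher share lay near the 16.7% of all genes tested. The female-higher count was 46 with upper-quartile and 45 with total-count scaling. The count was 3 without female replicate 2 or male replicate 3, 5 without female replicate 3 or male replicate 1, and 1 in a test against a fold of 2.

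Testis genes were male-higher in nearly every case tested. Of 16 genes of the spermatocyte programme that were tested, 15 were higher in males. Of the 18 listed, 7 had 0 counts in every female, and such genes pass the count filter only through the males, which fixes their direction in advance. The list's median log2 fold change was -7.16 as fitted and -4.32 with such genes at their bound. The RNA-binding protein gene bol, needed for meiosis in males, stood at 19.4, 18.3 and 27.1 CPM in females and 668, 314 and 508 CPM in males (log2 fold change -4.52, SE 0.36, edgeR adjusted p = 3.46e-05). The gene not called was twe, a meiotic phosphatase of both sexes, whose females spread from 3.70 CPM in replicate 1 to 66.3 CPM in replicate 2, across the male range of 34.1 to 82.0 CPM.

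All 26 sperm genes were higher in males. Of these, 20 had 0 counts in every female, so they passed the count filter only through the males and their direction was fixed in advance. The list's median log2 fold change was -13.30 as fitted and -9.74 with those 20 genes at their bound. The males held 1907, 834 and 1413 CPM of betaTub85D, the tubulin of the sperm tail, and the females 0.308, 0.181 and 0.630 CPM. Its log2 fold change was -11.68 (SE 0.57, adjusted p = 1.89e-05). S-Lap1, a sperm leucyl aminopeptidase, was at 3467, 1599 and 2965 CPM in males and at most 0.616 CPM in females. Mst98Ca, a structural gene of the sperm tail, had 0 counts in every female and 1505, 782 and 1311 CPM in males, at least 1854-fold higher. Male replicate 2 was the lowest male for each of these genes, and over the whole sperm list it reached 11742 CPM against 25176 and 21468 CPM in the other males. This library also had the largest share of ribosomal RNA counts, 51.2%, and the part of that share in the lower sperm RNA was not tested.

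The testis copies of genes for general cell functions were likewise male-higher, in 16 of 16 cases. Of these, 12 had 0 counts in every female and passed the count filter only through the males. Prosbeta5R1, a testis copy of a proteasome subunit, had 0 counts in every female and 143, 62.7 and 119 CPM in males, at least 167-fold higher. COX4L, a testis copy of a respiratory chain subunit, stood at 133 to 329 CPM in males and 0.181 to 0.788 CPM in females. Of 12 genes on the Y chromosome, 11 had 0 counts in every female, and 7 had counts enough to be tested. All 7 were male-higher, a direction fixed in advance because they passed the count filter only through the males. For kl-5, a dynein heavy chain of the sperm tail, the males held 28, 13.3 and 25.1 CPM and no female had a count, which made it at least 34.2-fold higher in males. Summed over the 12 genes, the females held 0, 0.362 and 0 CPM.

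Seminal protein genes formed another block of male-higher genes. All 36 accessory gland genes tested were male-higher. Of the 38 listed, 35 had 0 counts in every female, and such genes pass the count filter only through the males, which fixes their direction in advance. Acp36DE, a seminal protein needed for sperm storage, was at 3185, 2155 and 1878 CPM in males, at least 3720-fold above the females. SP, the sex peptide that changes the behaviour of mated females, was at 704, 498 and 298 CPM in males and at 0 counts in females, at least 773-fold higher. Summed over the list, the males held 24015, 16571 and 11175 CPM, and the females 4.31, 0 and 0.945 CPM. Of 6 genes of the ejaculatory duct and bulb, 5 were male-higher and 3 had 0 counts in every female. Ebp, a protein of the mating plug from the ejaculatory bulb, stood at 4384, 8381 and 6831 CPM in males with 0 counts in females, at least 10098-fold higher. In females the spermatheca gene Send1, a serine protease of the sperm store, was at 26.2, 3.44 and 10.9 CPM, and the males held 0.269, 0 and 0 CPM (log2 fold change 6.70, SE 1.19, adjusted p = 0.00186).

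**Figure D3:**
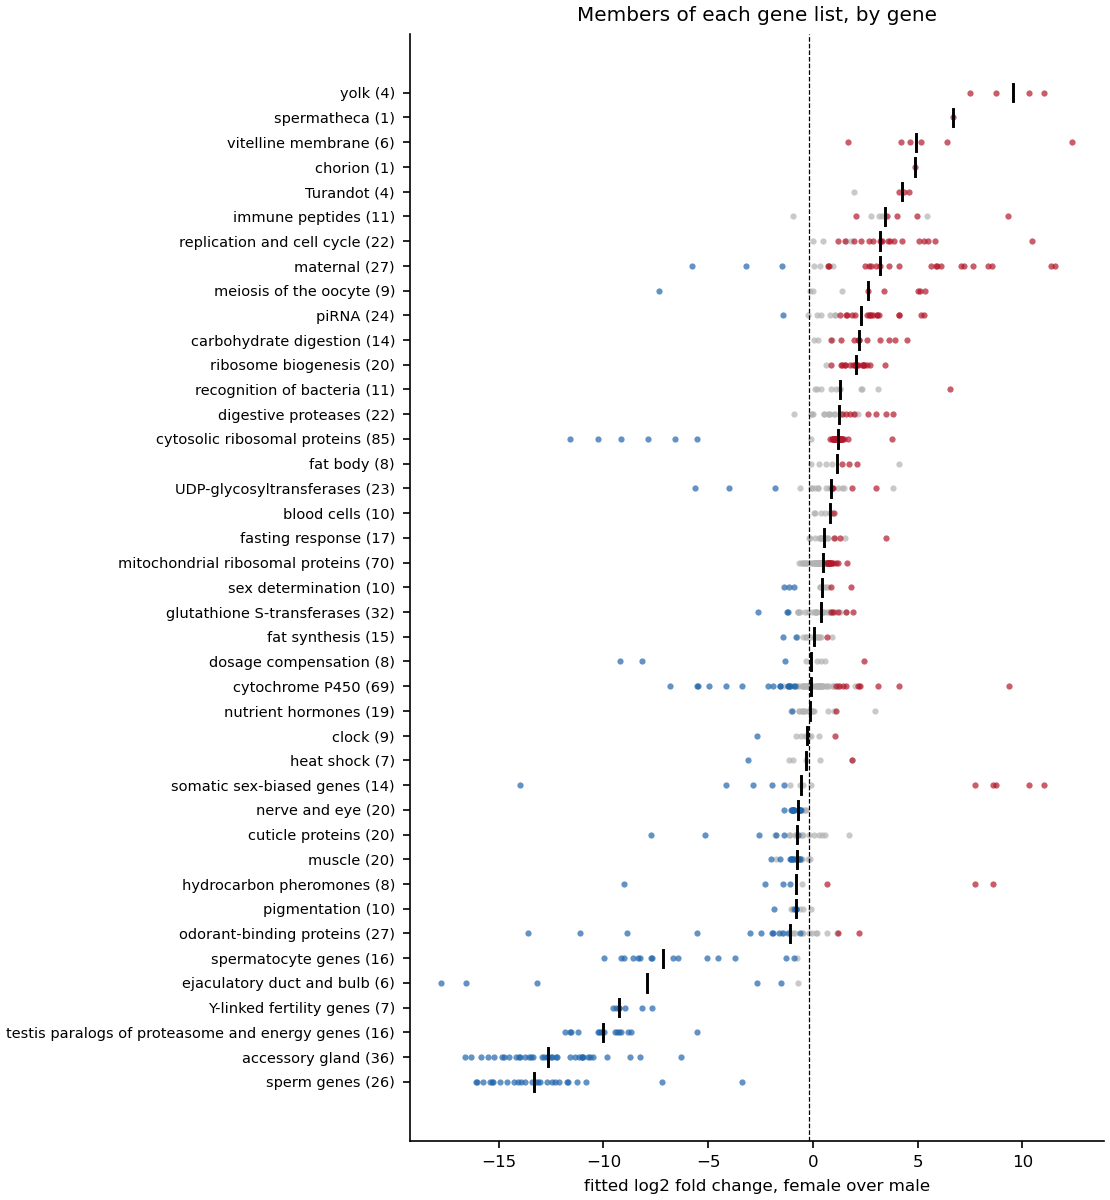
Fitted log2 fold change, female over male, of each tested member (points) of the gene lists, with the number of members tested in parentheses, red for genes higher in females, blue for genes higher in males, grey for genes not called, and a black bar at the list's median. The dashed line marks the median of all genes tested, -0.19, and lists from the spermatocyte genes downward lie at fitted medians of -7.16 or lower.

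Outside the lists, genes were named by the size of their difference among those with a mean of at least 50 CPM in the higher sex. Pxt, a peroxidase that acts in ovarian follicles, stood at 74.6, 152 and 154 CPM in females and at most 0.331 CPM in males (log2 fold change 9.13, adjusted p = 2.29e-05). The thioredoxin gene dhd, which acts at the start of embryonic development, was at 252, 1030 and 668 CPM in females and 0.289 to 3.64 CPM in males. CG11674 and CG43074, for which no role is stated here, were at 85.0 to 150 and 72.1 to 120 CPM in females, each with a count in 1 male only. On the male side, Mst57Db and Mst57Da, peptide genes of the accessory gland, were at 1672 to 5262 and 1079 to 2300 CPM, and CG17097 was at 2217 to 3460 CPM, all 3 with 0 counts in every female. Mst57Da and Mst57Db lie in a group of similar genes and may share reads, so their separate levels are uncertain.

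Single genes of pheromone synthesis, detoxification and odour binding also differed by large folds. Cuticular hydrocarbons act as contact pheromones, and females make long-chain dienes with enzymes of their own. Fad2, the female desaturase, stood at 261, 155 and 187 CPM in females and 1.34, 0 and 0 CPM in males (log2 fold change 8.61, SE 0.73, adjusted p = 4.24e-05). The elongase gene eloF was at 71.2, 78.7 and 123 CPM in females and at most 0.807 CPM in males (log2 fold change 7.76). Elo68alpha, an elongase of the male reproductive tract, went the other way, at 61.0, 89.2 and 98.2 CPM in males with counts in 1 female only, at 0.315 CPM. The elongase gene bond (log2 fold change -2.28) and Cyp4g1, the enzyme of the last step of hydrocarbon synthesis (log2 fold change -1.11), were male-higher, and the call of Cyp4g1 was lost with upper-quartile and total-count scaling.

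Of 69 cytochrome P450 genes tested, 9 were female-higher and 16 male-higher with a median of -0.08, in each direction a smaller share than the 16.7% and 32.2% of all genes tested. With total-count scaling the counts were 20 and 8 and the median was 0.60, and without male replicate 3 they were 5 and 12. The calls of Cyp312a1, Cyp6a19 and Cyp4d21 were made under each scaling. Cyp312a1 stood at 4.62, 2.36 and 2.68 CPM in females and 304, 397 and 378 CPM in males (log2 fold change -6.84, SE 0.34, adjusted p = 1.89e-05), and Cyp6a19 at 29.6, 139 and 82.4 CPM in females and at most 0.269 CPM in males (log2 fold change 9.36). Cyp4d21, also called sxe1, a doublesex target of the male head, was at 3.08 to 4.25 CPM in females and 66.1 to 72.3 CPM in males. Of 27 odorant-binding protein genes tested, 12 were male-higher and 2 female-higher, against 8 and 3 with upper-quartile scaling and 7 and 4 with total-count scaling. Without any one of the males 8 of 29 tested were male-higher. The shares over all genes tested were 32.2% male-higher and 16.7% female-higher. The males held 365, 385 and 364 CPM of Obp51a with 0 counts in every female, at least 574-fold higher, while Obp56g stood at 1348 to 2074 CPM in males and 30.3 to 41.6 CPM in females. Obp57a was higher in females, at 73.6 to 123 CPM against 18.5 to 23.9 CPM. Of 23 UDP-glycosyltransferase genes tested, 4 were female-higher and 3 male-higher, and of 32 glutathione S-transferase genes 5 and 3. In both families the female-higher share lay near the 16.7% of all genes tested, and the male-higher share below the 32.2%. With total-count scaling the counts were 15 and 3, and 15 and 1. Without male replicate 3 they were 1 and 3, and 0 and 2. The glycosyltransferase gene Ugt50B3 was at 175 to 272 CPM in males and 3.39 to 5.07 CPM in females (log2 fold change -5.63).

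Most heat shock and clock genes tested were not called, and single genes among them differed between the sexes. Of 7 heat shock genes tested, 1 was female-higher, 1 male-higher and 5 were not called. Of 9 clock genes tested, 1 was female-higher, 1 male-higher and 7 were not called. Over all genes tested, 48.9% were called in either direction. Hsp68, a chaperone, was at 11.7, 5.07 and 4.88 CPM in females and 72.6, 55.7 and 53.9 CPM in males (log2 fold change -3.11, SE 0.39, adjusted p = 0.000237). Clk, which drives the circadian clock, was at 5.98 to 8.94 CPM in females and 39.3 to 62.5 CPM in males (log2 fold change -2.65), and its partner cyc was at 37.0 to 60.4 CPM in females and 21.5 to 27.4 CPM in males (log2 fold change 1.06, lost without male replicate 3). Pigmentation genes of the abdomen were lower in females in 5 of 10 cases (3 without female replicate 2, male replicate 2 or male replicate 3), among them Abd-B, the Hox gene of the posterior segments, at 3.47 to 3.99 CPM against 12.1 to 14.2 CPM (log2 fold change -1.84). Abd-B was the 1 call of that list that remained with total-count and upper-quartile scaling. The male-higher share of all genes tested was 32.2%.

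Muscle and nerve genes were male-higher by amounts that the scaling can remove. Of 20 muscle genes, 12 were male-higher and none female-higher, with a median of -0.76, and of 20 nerve and eye genes 15 were male-higher, with a median of -0.70. Among all genes tested, 32.2% were male-higher. Upper-quartile scaling left 1 call in each list, and total-count scaling left 1 muscle call and no nerve call, at medians of -0.05 and -0.03 with total counts. Leaving out 1 library gave 5 to 13 muscle calls and 5 to 12 nerve and eye calls. The fewest were 5 and 5 without female replicate 2, and there were 6 and 6 without male replicate 1, 7 and 5 without male replicate 2 and 10 and 7 without male replicate 3. Act88F, the actin of flight muscle, was the muscle call that held under every scaling, at 30.2, 22.8 and 41.3 CPM in females and 120, 147 and 115 CPM in males (log2 fold change -2.02, SE 0.28, adjusted p = 0.000409). The synapse gene brp was at 31.4 to 49.5 CPM in females and 102 to 108 CPM in males (log2 fold change -1.38, adjusted p = 0.00146, lost with total-count scaling).

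Chromosomes differed in the mix of calls. On the X chromosome, 24.1% of 1799 genes tested were female-higher and 25.6% male-higher. On chromosomes 2 and 3 together, 15.2% of 9301 genes were female-higher and 33.7% male-higher. With upper-quartile scaling the shares were 39.4% and 19.9% on the X chromosome and 29.1% and 26.1% on chromosomes 2 and 3, and with total-count scaling 41.4% and 17.8% against 30.9% and 23.1%. Without male replicate 3 the female-higher shares were 14.6% and 8.41%. The median log2 fold change was 0.06 on the X chromosome and -0.25 on chromosomes 2 and 3, a difference of 0.31 that lay between 0.26 and 0.41 in the alternatives. All 9 genes tested on the Y chromosome were male-higher, a direction fixed in advance for genes that pass the count filter only through the males. On the small chromosome 4, 6 of 85 genes tested were female-higher and 21 male-higher. No test was made between chromosomes.

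Many genes of carbohydrate digestion, and fewer of protein digestion, were female-higher in these flies. Of 14 genes of carbohydrate digestion tested, 11 were female-higher and none male-higher, with a median of 2.18. For this list and the proteases below, the shares over all genes tested were 16.7% female-higher and 32.2% male-higher. Mal-A4, one of a cluster of maltases that split sugars in the gut, stood at 92.4, 83.4 and 20.8 CPM in females and 2.69, 4.62 and 1.32 CPM in males (log2 fold change 4.47, SE 0.67, edgeR adjusted p = 0.000725). Mal-A1 was at 3227, 2112 and 1376 CPM in females and 390, 738 and 578 CPM in males (log2 fold change 1.98, adjusted p = 0.00236). Mal-B1 was at 66.6 to 78.0 CPM in females and 6.72 to 15.5 CPM in males (log2 fold change 2.58). For each of these 3 genes every female lay above every male. With 12 females against the 3 males the list had 7 female-higher genes at a median of 1.33, and the calls of Mal-A1 and Mal-B1 were lost. The list's count was 10 without male replicate 1 or male replicate 3, 12 with upper-quartile scaling and 13 with total-count scaling. The amylase gene Amy-p, which shares reads with its near-identical copy Amy-d, overlapped and was not called, at 633 to 1832 CPM in females and 770 to 1179 CPM in males. Of 22 digestive protease genes tested, 8 were female-higher and none male-higher, as for lambdaTry, at 12.1 to 68.1 CPM in females and 1.32 to 6.35 CPM in males (log2 fold change 3.49). The other 14 proteases did not pass the test. The protease count was 5 without female replicate 3, 3 without male replicate 1, 3 (and 1 male-higher) without male replicate 3, 13 without male replicate 2, 4 with 12 females against the 3 males, and 16 or 17 with upper-quartile or total-count scaling.

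A second set of fasted flies shares no library with these. It held 9 females and 8 males that were assigned to 0.1, 0.2 or 0.4% DMSO but taken at 0 h, fitted with the assigned level as a factor. All of its females carried 1 run number and all of its males another, so sex and run cannot be told apart in it. Of 11575 genes tested there, 33.1% were female-higher and 49% male-higher, 82.1% in all. Of the female-higher genes described above, 1877 were tested there, 1666 (88.8%) were female-higher again and 8 were male-higher, and those 1666 made up 43.5% of the female-higher genes of the second set. Of the male-higher genes, 3601 were tested there, 3575 (99.3%) were male-higher again and none was female-higher, and they made up 63% of the male-higher genes of that set.

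Digestive genes were among those with few calls there. In the second set 2 of the 14 carbohydrate digestion genes were female-higher and 2 male-higher, and of the digestive proteases 1 was female-higher and 3 male-higher. There Mal-A1 ran from 287 to 2461 CPM in females (median 1140) and from 511 to 2724 CPM in males (median 1431), a log2 fold change of -0.58 that did not pass the test (adjusted p = 0.137). Mal-A4 ran from 7.33 to 68.3 CPM in females and from 1.81 to 82.7 CPM in males (log2 fold change 0.07, adjusted p = 0.924). The females and males of the second set overlapped over nearly their whole ranges for these genes. A test of the difference between the 2 sets was not made.

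**Figure D4:**
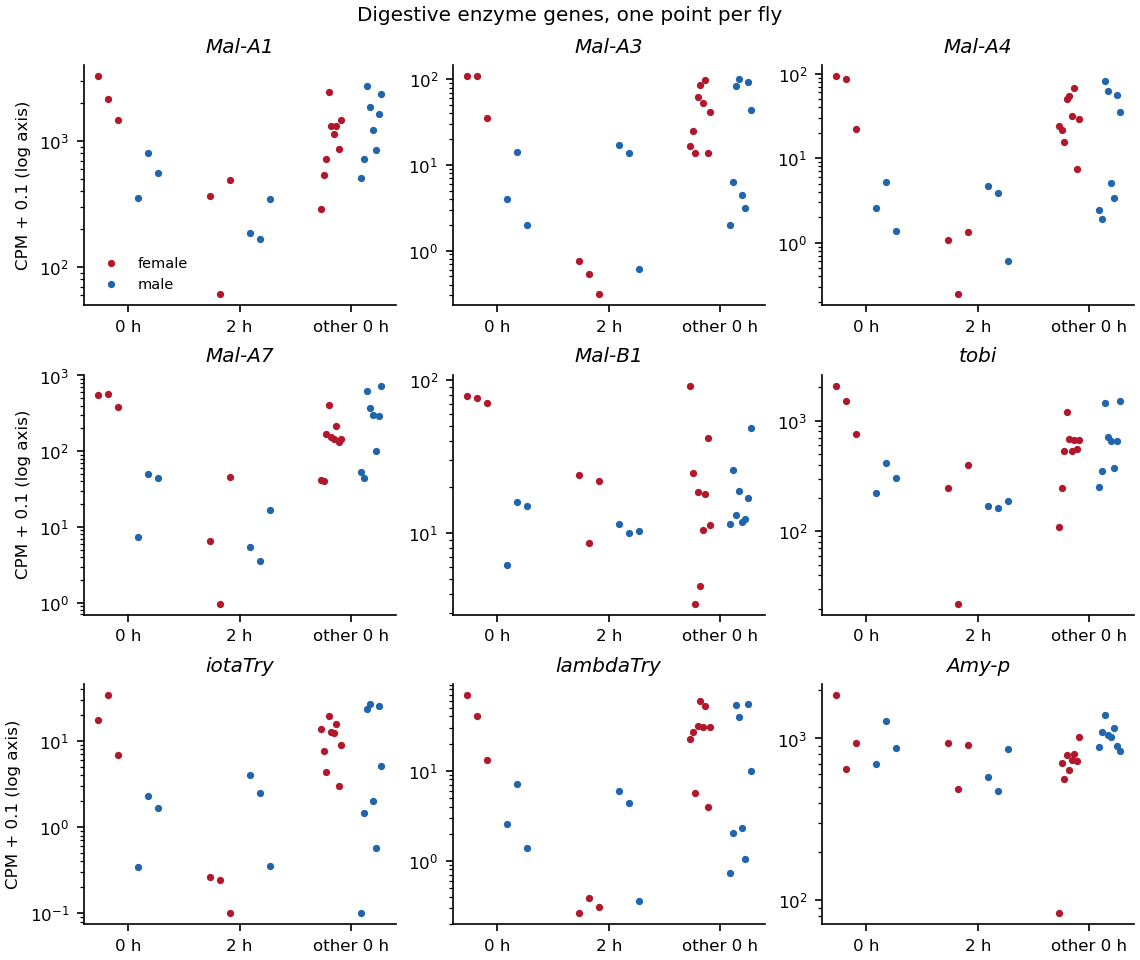
Levels of 9 digestive enzyme genes in single flies as CPM + 0.1 on a log axis, red for females and blue for males, at 0 h and after 2 h of refeeding (scaled together over 12 libraries) and in the 17 other flies taken at 0 h (scaled separately). The 3 females at 0 h lie above the 3 males for all genes but Amy-p, the 2 h females lie below all other flies of the 12 libraries for iotaTry, and the other 0 h flies of both sexes overlap.

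After 2 h of refeeding on the defined food with a dye and no DMSO, the sex difference had changed for 19 of 12069 genes tested in the 12 libraries of 0 and 2 h, or 0.157%, and 888 genes had an unadjusted p under 0.05. The 2 h flies came from another plate, so refeeding and plate cannot be told apart, and this comparison shares its 0 h flies with the one above. In 18 of the 19 genes (0.149% of those tested) the log2 fold change, female over male, was lower at 2 h, in 1 (0.00829%) it was higher, and 14 of the 19 had been female-higher at 0 h. On the scale of those 12 libraries, Mal-A3 stood at 109, 108 and 35.1 CPM in the females at 0 h and at 0.645, 0.435 and 0.208 CPM in the females at 2 h. The males held 3.90, 14.2 and 1.91 CPM at 0 h and 17.1, 13.9 and 0.509 CPM at 2 h, and the change in log2 fold change was -8.17 (SE 1.34, edgeR adjusted p = 0.0369). The 2 h females lay near 0 and below every 0 h female. Npc2f, a sterol-binding protein of the Niemann-Pick family, was at 41.7, 29.2 and 37.1 CPM in females at 0 h and 0.869 to 2.50 CPM at 2 h, with males at 0.244 to 2.82 CPM throughout (change -6.62, SE 0.81, adjusted p = 0.00785). MtnB, a metal-binding metallothionein of the gut, was at 39.2 to 142 CPM in females at 0 h and 0.208 to 0.725 CPM at 2 h.

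For other genes the males at 2 h lay above the males at 0 h. Oat, ornithine aminotransferase, was at 68.2 to 140 CPM in females at 0 h and 48.0 to 68.9 CPM at 2 h, and in males at 16.5 to 18.3 CPM at 0 h and 44.0 to 71.2 CPM at 2 h. Paics, an enzyme of purine synthesis, was at 209 to 773 CPM in females at 0 h and 110 to 145 CPM at 2 h, and in males at 71.8 to 92.5 CPM at 0 h and 183 to 356 CPM at 2 h. At 2 h the males thus lay above the females for Paics, the reverse of 0 h. The gene whose log2 fold change was higher at 2 h was LysE, a lysozyme of the gut, with females at 0 to 0.844 CPM at 0 h and 5.00 to 22.7 CPM at 2 h, and males at 79.4 to 105 CPM and 65.8 to 89.0 CPM. CG9682, the only one of the 19 genes that was called in each of the 18 alternatives, was at 13.3 to 20.9 CPM in females at 0 h and at 0.161, 0 and 0 CPM at 2 h, with males at 12.9 to 29.6 CPM throughout. The count of calls was 70 without female replicate 3 and 36 without female replicate 1. It was 9 without male replicate 2, and between 1 and 5 without male replicate 1, male replicate 3, male 2 h replicate 1, male 2 h replicate 2 or any one of the 2 h females.

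The other nutrient lists gave few calls, where 48.9% of all genes tested were called in either direction. Of 17 genes of the fasting response tested, 3 were female-higher, near the 16.7% of all genes tested, and none male-higher. The female-higher count was 11 with upper-quartile scaling, 13 with total-count scaling and 5 without female replicate 3. Among the 3 was Lsd-2, the perilipin that guards fat droplets. Lsd-2 stood at 259 to 309 CPM in females and 87.6 to 131 CPM in males (log2 fold change 1.29, edgeR adjusted p = 0.00192). Lip3, a lipase raised by starvation, was at 2.05 to 3.39 CPM in females and 0 to 0.331 CPM in males. Of 15 fat synthesis genes tested, 1 was female-higher (Desat1) and 2 were male-higher (FASN2 and Agpat2). The calls of Desat1 and Agpat2 were each lost in 8 alternatives. FASN2, a fatty acid synthase of the oenocytes, was higher in males at 281 to 479 CPM against 124 to 160 CPM (log2 fold change -1.41, lost with total-count scaling). Among 19 nutrient hormone genes tested, Lst, which encodes the insulin-suppressing hormone limostatin, was female-higher by 1.09 on the log2 scale and Dh44, a diuretic hormone, male-higher by 0.98. Each of the 2 calls was lost in several alternatives, Lst without male replicate 2 or 3 and Dh44 without any one of 5 libraries.

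Antimicrobial peptide genes were high in female replicate 1 and low in the other 5 flies, so their sex difference was examined with and without that fly. Summed over 25 genes of the immune peptides, female replicate 1 reached 34008 CPM, the other females 761 and 942 CPM, and the males 455.9 to 495.9 CPM. DptA, a diptericin induced by bacteria through the Imd pathway, stood at 3817 CPM in female replicate 1, at 1.09 and 0.788 CPM in the other females and at 0.289 to 3.23 CPM in males. Its call as female-higher (log2 fold change 9.33, SE 3.14, adjusted p = 0.038) was lost without that fly, where the log2 fold change was -1.03 (adjusted p = 0.302), and also without male replicate 2 or 3. Genes for BomS1, Dro and Mtk likewise stood at 1810, 3268 and 1354 CPM in that female, and at no more than 22.8, 2.15 and 2.15 CPM in any other fly. PGRP-SB1, which cleaves peptidoglycan, was at 679 CPM there and 0.661 to 7.25 CPM elsewhere. Of 11 immune peptide genes tested, 5 were female-higher with that fly, and 3 were female-higher and 1 male-higher without it. Among all genes tested, 16.7% were female-higher and 32.2% male-higher with that fly, and 19.4% and 36.6% without it. The list's female-higher count was 2 without any one of the males, 10 without female replicate 2, 11 without female replicate 3, and 10 with upper-quartile or total-count scaling.

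**Figure D5:**
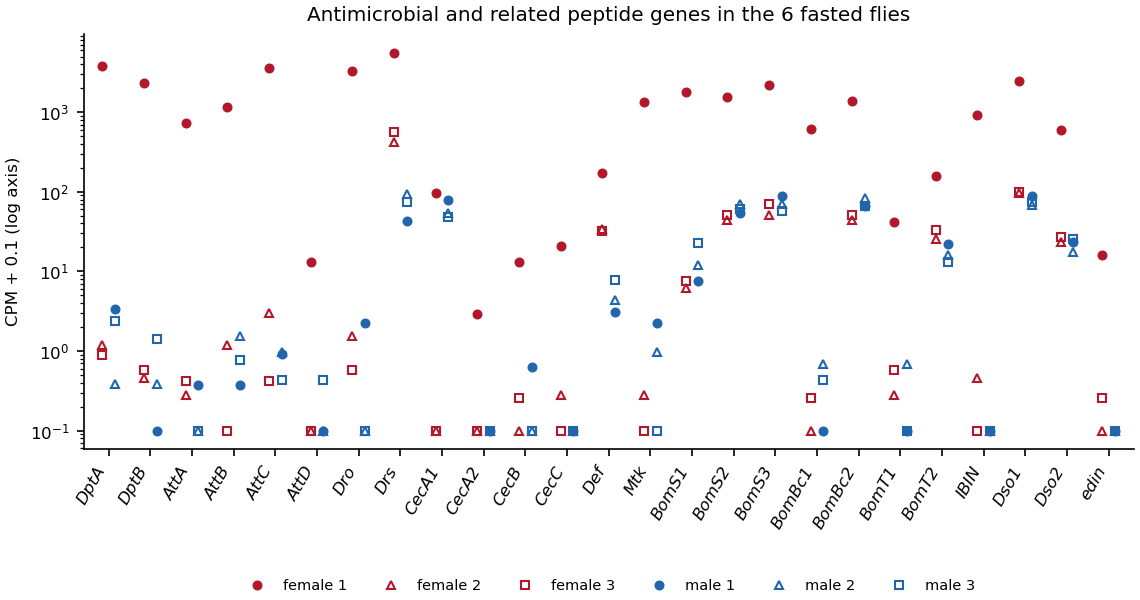
Levels of the 25 immune peptide genes in the 6 fasted flies as CPM + 0.1 on a log axis, red for females and blue for males, with filled circles for replicate 1 of each sex. Female replicate 1 is the highest fly for every gene shown, while for CecA1 the 3 males lie close below it and the other 2 females lie at 0 counts.

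Drs, Def and BomT2 were female-higher and CecA1 male-higher without female replicate 1. BomT2, a bomanin peptide, was at 158, 25.7 and 32.9 CPM in females and 12.9 to 22.1 CPM in males (log2 fold change 2.07, and 0.79 with an adjusted p of 0.0392 without that fly), and its call was lost without any one of the males. Drs, an antifungal peptide, was at 5610 CPM in that female, 428 and 568 CPM in the others and 43.0, 93.6 and 75.0 CPM in males. Its log2 fold change was 4.96 (SE 1.05, adjusted p = 0.00485), and without that fly 2.80 (adjusted p = 3.35e-05). In the second set of fasted flies it was 2.97, with females at 242 to 2634 CPM and males at 47.6 to 165 CPM. The highest of these females, replicate 3 assigned to 0.2% DMSO, was also high in DptA, at 917 CPM. The other females of that set held 242 to 727 CPM of Drs and at most 3.53 CPM of DptA. Def, a defensin, was at 173, 34.4 and 32.3 CPM in females and 2.96 to 7.6 CPM in males (log2 fold change 4.01, and 2.76 without that fly). CecA1, a cecropin, was higher in males once female replicate 1 was left out. It stood at 96.4 CPM in female replicate 1, at 0 counts in the other females and at 77.7, 54.0 and 47.6 CPM in males, so the full comparison gave a log2 fold change of -0.94 (SE 1.60, adjusted p = 0.647) and the comparison without that fly was called (adjusted p = 5.92e-07). In the second set the females ran from 0 to 15.0 CPM (median 0.235) and the males from 42.9 to 101 CPM, with no overlap (log2 fold change -5.39, adjusted p = 1.76e-06).

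Fly-to-fly differences also touched stress and fat body genes. The Turandot stress gene TotA was at 1350, 79.4 and 15.3 CPM in females and 15.2 to 43.3 CPM in males, and was called (log2 fold change 4.10, adjusted p = 0.0429), but not without female replicate 1 or without any one of the males. The female-enriched fat body gene fit was at 155, 3.62 and 1.42 CPM in females and 0.578 to 1.61 CPM in males, too low in most flies to be tested here. In the second set fit was at 3.34 to 31.4 CPM in females and 0 to 2.37 CPM in males (log2 fold change 4.09, adjusted p = 1.88e-07). Hsp26, which is both a stress gene and a maternal RNA, was at 56.1 CPM in female replicate 1, below the male range of 75.7 to 82.0 CPM, and at 494 and 315 CPM in the other females. Without female replicate 1 the genes higher in females numbered 2299 and those higher in males 4349, or 19.4% and 36.6% of 11869 genes tested, of which 1770 and 3534 were calls with all 6 flies.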

How the data were processed

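Whole-body polyadenylated RNA of single flies was sequenced from strand-marked libraries with spike-in RNAs, per the labels' protocols. The values are the authors' deposited counts of reads per gene, not normalized, in 1 table per library. Tools named in the submitters' processing notes are HTSeq 0.6.1p1 for counting reads, the aligners TopHat2 2.1.0 and STAR 2.4.2a, and, for base calls, bcl2fastq 1.8 with CASAVA 1.8.2. The genome build and the strand setting of counting are not given in the sources used here. Of 17370 genes, 17155 were matched to a symbol and a chromosome in an Ensembl annotation. The 96 spike-in rows and 5 summary rows were left out, and the summary rows held 10.6 to 22.3% of the reads in the 6 libraries.

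Counts were tested with edgeR 4.0.16 (quasi-likelihood test, trimmed mean of M values scaling, low-count filter by sex, Benjamini-Hochberg adjustment over all genes tested, threshold 0.05) in R 4.3.3, after the procedure was tested on simulated data. Alternatives used DESeq2 1.42.0, other scalings, no filter, a replicate block, a test against a fold of 2 and leaving out each library. SE is the log2 fold change over the root of the F statistic. Where every library of a sex had 0 counts, folds were bounded by 3 counts per library. The SE takes in the variation between single flies, while the bounds cover counting error only.

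Members and the 41 gene lists were chosen with earlier results of these data known. Genes named are fixed check genes, the 8 largest changes per sex outside the lists with non-overlapping groups and a mean of at least 50 CPM, the best-called and most abundant members of each list, the 10 interaction genes of smallest p and the immune peptides. SP, fru, orb, Amy-d, Cp36, Cp38, LysE, Paics and the interaction genes beyond those 10 were named after their values were seen. One male library of the second set, whose labels disagree on the time, was left out.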

Additional observations from a re-analysis of the deposited data

Results flagged for a closer look

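The genes below had a sex difference that changed between 0 and 2 h by the edgeR test of the interaction at an adjusted p under 0.05. Each value is the log2 fold change (female over male) at 2 h minus that at 0 h. Among digestive and gut genes it was -8.17 for Mal-A3, -6.52 for Mal-A4, -7.99 for iotaTry, -7.37 for lambdaTry, -7.09 for MtnB, -6.62 for Npc2f and 4.89 for LysE. Among enzymes of amino acid, one-carbon and purine metabolism it was -2.44 for Oat, -2.20 for Shmt, -3.31 for Paics and -2.29 for Argl, the gene of argininosuccinate lyase. For genes known here by number it was -9.72 for CG17571, -9.18 for CG11911, -8.01 for CG33306, -7.57 for CG9682, -5.66 for CG6403, -4.91 for CG1979, -3.68 for CG3841 and -2.63 for CG3829. Of these 19 genes, 7 were called in the second set of fasted flies with the sign of their log2 fold change at 0 h here. Among those 7, CG9682 and CG3841 were not called at 0 h here.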

How the results depend on the processing

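In the fasted comparison, the count of female-higher genes moved by over 1.5 times without male replicate 1 (1242) or male replicate 3 (1091), with upper-quartile scaling (3492), total-count scaling (3698), 12 females against the 3 males (3417) and a test against a fold of 2 (614, with 3149 calls in all). Leaving out 1 library gave 1091 to 2299 female-higher genes, 3043 to 4349 male-higher genes and 4172 to 6648 calls. The 19 interaction calls became 6 with RLE scaling, 7 with upper-quartile scaling, 34 with no filter, 139 with DESeq2 and 1 to 70 without 1 library. In the second set of fasted flies, leaving out 1 library gave 9280 to 9496 calls. The cause of these moves was not tested.

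With a replicate block the fasted comparison gave 1682 female-higher and 3403 male-higher genes (5085 in all), the second set 9562 calls and the interaction 33. The deviations of same-numbered flies correlated at 0.00407, -0.0699 and 0.0376, so they share only a number.

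Of 222 named genes tested, 187 were called and 130 of these were called in the same direction in each of the 16 alternatives. Of all 222, 4 called and 22 uncalled genes changed sign in at least 1 alternative. The called ones were DptA and, with total-count scaling, Mhc (0.07), ninaE (0.12) and Arr2 (0.04). Among genes described above, log2 fold changes of the other sign were -0.35 for Amy-p, -1.03 for DptA and -1.04 for BomS1 without female replicate 1, and leaving out other libraries gave up to 0.47, 9.91 and 6.02. With 12 females they were -0.34 for Amy-p and 0.14 for twe. For CG9682 they were 0.01 with upper-quartile and 0.11 with total-count scaling. The fewest counts among the 6 libraries were 2797283, in female replicate 1, where 3 counts correspond to 1.07 CPM.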
